A study of Mus musculus with 5 samples.

Results

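Meg3, Rian and Rtl1 lie side by side in an imprinted domain of mouse chromosome 12 and were followed here through 21 of the 53700 features of the count tables. The data are RNA sequencing counts from striatal homogenates of adult mice of the Adcy5R419W line (KI, 2 libraries, replicates 1 and 3) and from wild-type littermates (WT, 3 libraries, replicates 1, 2 and 3). Adcy5 encodes an adenylyl cyclase, an enzyme that makes cAMP, and is the chief one of striatal neurons. The sources used here do not give strain background, age in weeks or zygosity. No label ties a library to its own animal, so p-values reflect only how far these libraries spread, and part of that may be technical. The labels also call the material striatal cells. Markers of spiny projection neurons, the main neurons of the striatum, were present in every library (summed level of the 6 covered list genes 7843 to 12034.5 CPM, counts scaled to library size). The defining genes Drd1, Drd2, Adora2a and Ppp1r1b were assigned no feature.

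The members are all features on chromosome 12 whose intervals lie over GENCODE M21 (GRCm38) exons of Meg3, Rian, Mirg, Rtl1 or Dlk1. They were chosen by a rule made with earlier results of these data in view, and the locus was selected on its KI-to-WT difference in read counts, so the KI-to-WT differences of the members are described below and not tested. Of the 21 members, 18 passed the filter on low counts and 3 did not.

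Imprinted genes are transcribed mainly from the chromosome inherited from 1 parent. In this domain the maternal chromosome makes the long noncoding RNAs Meg3 (also called Gtl2), Rian (Meg8) and Mirg, which host many small nucleolar RNAs and microRNAs, while the paternal chromosome makes Dlk1, a Notch-related ligand, Rtl1, a protein derived from a retrotransposon, and Dio3, a thyroid hormone-inactivating deiodinase. A differentially methylated region upstream of Meg3 controls the whole domain. MicroRNAs made from the maternal strand opposite Rtl1 are known to direct cleavage of the Rtl1 transcript, Meg3 RNA is kept largely in the nucleus of neurons, and the proximal promoter of human MEG3 is known to respond to cAMP, the product of adenylyl cyclases, through a cAMP response element.

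The mouse Meg3 promoter is shown because it carries that element. The window covers 250 bases before and 50 bases after the start site, from RefSeq (GRCm38.p6, plus strand, chr12:109540746-109541045), and the capitals mark the palindromic cAMP response element TGACGTCA, which begins 57 bases before the start site.
Meg3 promoter: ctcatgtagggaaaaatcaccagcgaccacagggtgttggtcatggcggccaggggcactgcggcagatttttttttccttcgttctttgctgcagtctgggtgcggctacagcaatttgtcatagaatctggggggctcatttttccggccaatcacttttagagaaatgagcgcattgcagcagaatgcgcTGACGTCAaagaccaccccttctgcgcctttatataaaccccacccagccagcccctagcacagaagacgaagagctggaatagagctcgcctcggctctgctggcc
The full element was found in 588 of 32851 promoter windows of this length (1.79%) and in at least 1 window of 2.03% of the 27025 gene symbols. Windows of Dlk1, Rian, Mirg and Dio3 and the second of 2 Meg3 windows did not hold it. The shorter core TGACG, on either strand and also counted inside the full element, occurred in 20.8% of windows. Of 39 imprinted genes elsewhere with a window, Peg3, Usp29, Zdbf2 and Th held the full element. A match describes these letters only.

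MicroRNAs of the domain are shown because their names label features that in fact lie over Meg3. They are from RefSeq (GRCm38.p6), and the capitals mark the seed, bases 2 to 8.
miR-127-3p: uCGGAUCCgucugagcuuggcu
miR-433-3p: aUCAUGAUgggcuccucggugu
miR-434-3p: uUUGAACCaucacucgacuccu
miR-136-5p: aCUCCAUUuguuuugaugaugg
No seed was shared among the 11 mature microRNAs opposite Rtl1. All 11 were fully complementary to the 1 annotated Rtl1 transcript and 0 occurred in the 11 Meg3 transcripts. The libraries were made from messenger RNA and hold no direct measurement of these small RNAs.

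Labels in the files do not name what was counted at this locus. The feature labelled Meg3 has the 18089 exon bases of GRCm38 Meg3, but its start minus that of the GRCm38 gene is -34117 bases and it covers no Meg3 exon. Its counts were 49, 104 and 79 (WT replicates 1, 2 and 3) and 70 and 130 (KI replicates 1 and 3). The feature labelled Rtl1 (ENSMUSG00000085925) is displaced by -33566 bases and lies over exons of Meg3. Its counts in the same order were 18802, 21312, 19734, 25796 and 35130. Genes are therefore named by the GRCm38 exons at a feature's positions. The coordinates below are those of the files, read as GRCm38 positions. Strand was ignored in counting, so transcripts of the maternal and the paternal strand cannot be told apart.

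What the features cover limits each gene. Meg3 (chromosome 12, 109541001 to 109571726, plus strand) was covered by 8 features, 7 of them mainly over Meg3. Rian (109603940 to 109661716, plus strand) was covered by 14. Rtl1 (109589193 to 109600330, minus strand) was covered only over 440 of its 6358 exon bases, by the feature labelled Rian (ENSMUSG00000097451), which also lies over 534 exon bases of Meg3 and 654 of Rian. Rtl1 therefore has no value of its own here. Mirg and Dlk1 had 0 exon bases covered, and their levels were not measurable.

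Meg3 was among the most abundant RNAs in both groups and had higher values in both KI libraries than in any WT library. Its main feature, labelled Rtl1 (109555627 to 109566764), covers 3429 bases of exon blocks 7 and 8 of 8, which is 53.9% of its 6358 bases. It ranked 14th by total count among 13665 tested features. Its level was 2469.55, 2848 and 3020.5 CPM in WT replicates 1, 2 and 3 and 3495 and 4350.3 CPM in KI replicates 1 and 3. The groups did not overlap, KI replicate 3 was the highest library and WT replicate 1 the lowest. Means were 2779 ± 282 CPM in WT (SD, n = 3) and 3923 ± 604 CPM in KI (SD, n = 2), a 1.41-fold difference (log2 fold change 0.50, SE 0.11). This feature alone took 0.241% to 0.299% of all counts in WT, and 0.354% and 0.444% in KI replicates 1 and 3.

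Short windows inside that feature gave the same order of groups. They carry the labels of 6 microRNA hairpins, are 62 to 124 bases long, and count some of the same read pairs as the main feature, so they show only how even the difference was along the RNA. The window labelled Mir433, at the edge of exon block 7, stood at 270, 314 and 339 CPM in WT against 358 and 465 CPM in KI (log2 fold change 0.42, SE 0.14). Further along, in exon block 8, the window labelled Mir127 stood at 163, 193 and 234 CPM in WT against 240.1 and 313 CPM in KI (0.49, SE 0.16). Here KI replicate 1 was barely above WT replicate 3. The window labelled Mir434 stood at 211, 239 and 267 CPM in WT against 307 and 432 CPM in KI (0.63, SE 0.15). That labelled Mir432 stood at 139, 162 and 173 CPM in WT against 218 and 270.3 CPM in KI (0.63, SE 0.14). The overlapping windows labelled Mir3071 and Mir136 gave log2 fold changes of 0.55 (SE 0.14) and 0.56 (SE 0.14). In all 6 windows both KI libraries were above all WT libraries, with log2 fold changes of 0.42 to 0.63.

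**Figure D1:**
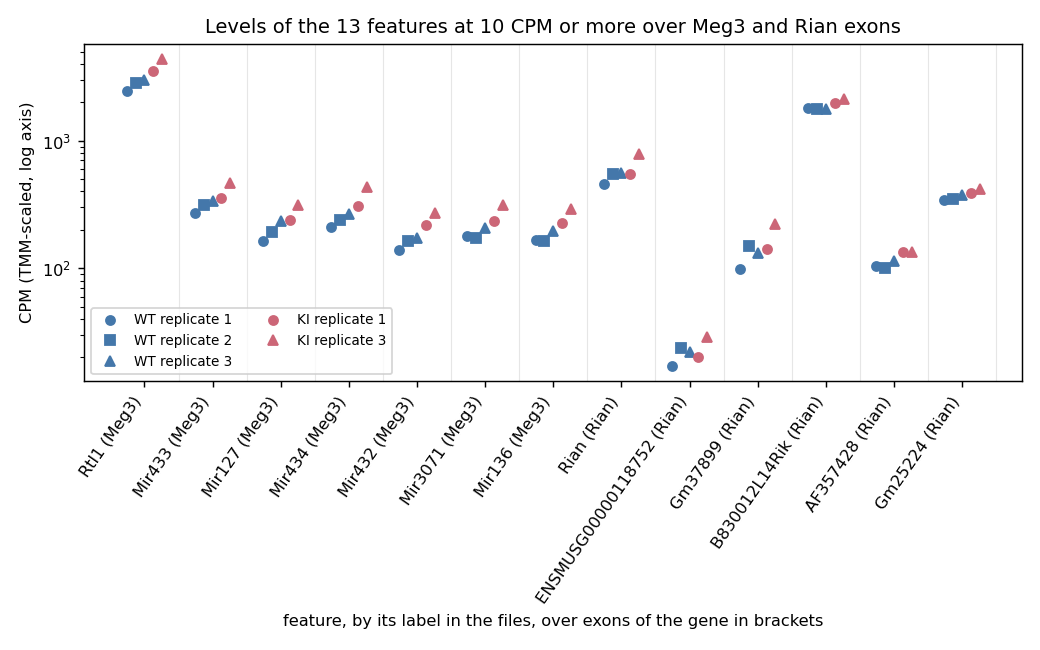
Level of the 13 features with a mean of at least 10 CPM over Meg3 and Rian exons, 1 point per library, on a log axis of TMM-scaled CPM. Blue points are WT libraries and red points KI libraries. In 10 of the 13 both red points lie above all blue points, and in the features labelled Rian, ENSMUSG00000118752 and Gm37899 they overlap.

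Rian, the host RNA of small nucleolar RNA clusters, also had higher values in both KI libraries in its main feature. That feature, labelled B830012L14Rik (109642711 to 109680989), covers 3639 Rian exon bases in exon blocks 12, 13, 14, 18 and 19 of 19. Its levels were 1819, 1777 and 1779 CPM in WT against 1986 and 2139 CPM in KI. The WT libraries lay close together, and both KI libraries were above them. Means were 1792 ± 23.6 CPM in WT (SD, n = 3) and 2063 ± 108 CPM in KI (SD, n = 2), a 1.15-fold difference (log2 fold change 0.20, SE 0.08). Whether this differs from the 0.50 of Meg3 was not tested. Rian exons make up 31.2% of the 11679 bases of this feature, and it runs past the Rian end (109661716). The feature also covers 153 exon bases of the uncharacterised Gm37899, and stretches with no annotated exon.

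Other parts of Rian varied more. The window labelled AF357428, inside exon block 14, stood at 104, 101 and 114 CPM in WT against 134 and 135 CPM in KI (log2 fold change 0.34, SE 0.13). The window labelled Gm25224, at the edge of exon block 15, stood at 343, 351 and 373 CPM in WT against 392 and 417 CPM in KI (0.18, SE 0.11). In both windows the groups did not overlap. Upstream, the feature labelled Gm37899 covers 1338 Rian exon bases and 2011 of the noncoding RNA Gm26945. Levels there were 98.1, 149 and 132 CPM in WT against 143 and 223 CPM in KI (0.53, SE 0.20), and KI replicate 1 lay below WT replicate 2. The short window ENSMUSG00000118752, over 7 Rian exon bases, stood at 17.2, 23.5 and 22.2 CPM in WT against 20.2 and 29.1 CPM in KI, also overlapping.

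Within a single annotated block the Rian signal was very uneven. Exon block 14 is the union of the exons of several transcripts, and all 9 windows that lie wholly inside it are 69 to 77 bases long. AF357428, which 2 of 20 Rian transcripts include, averaged 106 CPM in WT and 134 CPM in KI. The other 8, each in 1 of 20 transcripts, averaged 0.051 to 3.82 CPM in WT and 0.136 to 3.43 CPM in KI. Those are the 8 members under 10 CPM, a level set after the values were seen. Of these, 3 (Gm23736, Gm23787 and Gm22205) were below the filter, 4 of the other 5 had lower fitted values in KI, and their standard errors were 0.62 to 1.57. The lowest, Mir882, was counted 34, 13 and 17 times in WT and 3 and 11 times in KI (log2 fold change -1.70, SE 1.03). At these counts no direction can be read.

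The mixed feature labelled Rian, the only one over Rtl1 exons, stood at 459, 551 and 557 CPM in WT against 552 and 792 CPM in KI (log2 fold change 0.36, SE 0.14). KI replicate 1 lay between WT replicates 2 and 3. How much of this signal comes from Meg3, Rian or Rtl1, or from stretches between exons, cannot be told apart, since the exons of all 5 domain genes make up a small part of its 31981 bases.

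Meg3 and Rian are read from the same strand, and their proportion within a library does not depend on scaling. The main Meg3 feature held 1.36, 1.60 and 1.70 counts per count of the main Rian feature in WT replicates 1, 2 and 3 and 1.76 and 2.03 in KI replicates 1 and 3. Both KI libraries were above all WT libraries, but the step from WT replicate 3 to KI replicate 1 was smaller than that between WT replicates 1 and 2. Means were 1.55 ± 0.18 in WT (SD, n = 3) and 1.90 ± 0.19 in KI (SD, n = 2). Per kilobase of covered exon, Meg3 stood at 811 CPM in WT and 1144 CPM in KI and Rian at 492 and 567 CPM. The proportion and these levels per length also include reads from the parts of each feature outside Meg3 or Rian exons.

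Counts over the members read as follows. Of 18 tested members 14 had higher and 4 lower fitted values in KI, with a median log2 fold change of 0.39 against -0.002 over all 13665 tested features. Both KI libraries were above all WT libraries in 10 members, which holds for 11.3% of all tested features, and below them in 1 (Mir882; 11.1%). In the edgeR quasi-likelihood test 0 members passed an adjusted p of 0.05 (0.102% of all features did), and 11, all higher in KI, had an unadjusted p under 0.05 (6.4% of all features, 2.68% with higher values in KI). The DESeq2 Wald test called 5 (1.83% of features with an adjusted p), all of them over Meg3, and limma voom called 1 (0.381%), the main Meg3 feature. The members share reads and were chosen with this contrast in view, so nothing is read from these shares. There was no threshold in the rule for members.

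**Figure D2:**
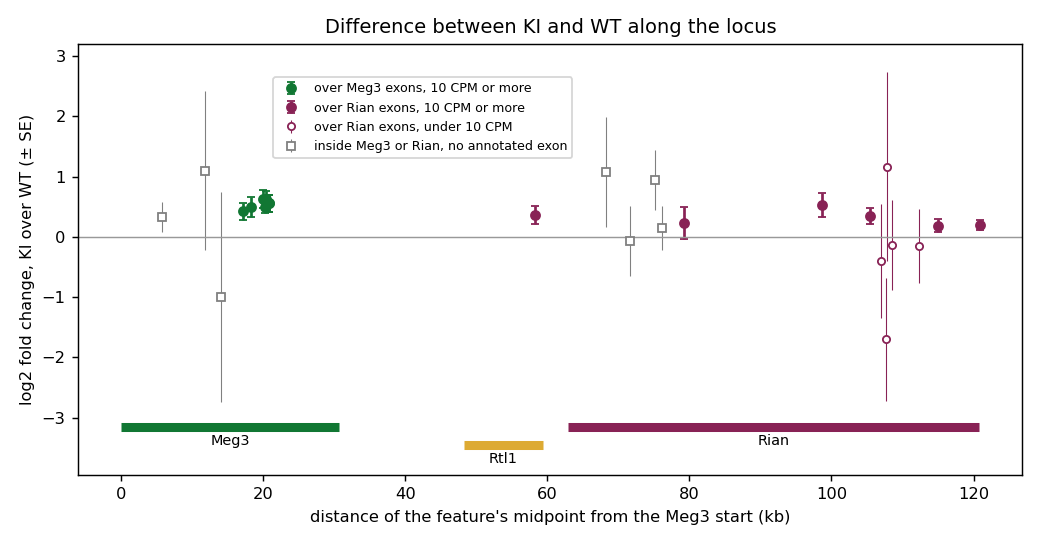
Log2 fold change of KI over WT (± SE from the edgeR fit) against the distance of a feature's midpoint from the Meg3 start. Bars at the foot mark the extent of Meg3, Rtl1 and Rian. Filled points of the 7 features mainly over Meg3 exons lie between 0.42 and 0.63, the mixed feature labelled Rian at 0.36 and the main Rian feature, at the right end, at 0.20; open points have low counts and wide errors, and a wide feature is placed at its midpoint only.

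Stretches inside the gene bodies that hold no annotated exon had lower levels than the windows over Meg3 exons, though not than every window over Rian exons. Of 7 such tested windows, the most abundant, labelled Mir493, lies between exon blocks 4 and 5 of Meg3. Its levels were 46.1, 71.9 and 81.6 CPM in WT against 60.8 and 106 CPM in KI (log2 fold change 0.33 with SE 0.25, edgeR adjusted p = 0.965), and the groups overlapped. The windows labelled DQ267100 (log2 fold change 0.94, SE 0.50) and ENSMUSG00000118938 (1.08, SE 0.92) lie inside Rian and stood below 11 CPM in every library. The other 4 gave 1.10 (SE 1.33) for Mir665, -1.0 (SE 1.75) for ENSMUSG00000119223, -0.07 (SE 0.58) for Gm24895 and 0.15 (SE 0.37) for ENSMUSG00000119249.

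Of the tested features in and around the locus that are not members, 0 passed the edgeR test. Within 1 Mb of the members lay 115 other features, of which 29 were tested. These 29 include the 7 windows without an annotated exon described above. They also include the windows labelled Gm23347, inside Rian, and Gm24564, inside Rtl1, so they are not only neighbours of the locus. In the edgeR quasi-likelihood test 0 passed in either direction and 5 had an unadjusted p under 0.05 (6.4% of all features did). DESeq2 and limma voom each called 0. Fitted values were above 0 in 19 and below 0 in 10, with a median log2 fold change of 0.15. The smallest p belonged to the feature labelled 1700001K19Rik, over 243 exon bases of Dync1h1, the heavy chain of cytoplasmic dynein. Its levels were 141, 137 and 148 CPM in WT against 201 and 171 CPM in KI (log2 fold change 0.39 with SE 0.13, edgeR adjusted p = 0.450). Next came the feature labelled Wars, over Slc25a29, Slc25a47 and Wars (0.47, SE 0.17, edgeR adjusted p = 0.564). The features labelled Gm17111 (0.41, SE 0.16) and Dync1h1 (0.25, SE 0.10) also had an unadjusted p under 0.05. Both lie over Dync1h1 exons as well, the latter also over Ppp2r5c. The last of the 5, labelled B930059L03Rik, had a lower fitted value in KI (-3.89, SE 1.65) and at most 3.41 CPM in any library.

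Imprinted genes in other domains were taken from lists of 52 genes, of which 19 were tested. Parent of origin follows the lists and was not measured here, also for Ppp1r9a, listed as paternally expressed (log2 fold change -0.03, SE 0.12). In the edgeR quasi-likelihood test 3 of the 19 rose in KI and 0 fell, all 3 among the 9 tested genes listed as paternally expressed. These were Peg10, a retrotransposon-derived gene (log2 fold change 2.47, SE 0.14, adjusted p = 1.43e-06), Usp29, a ubiquitin protease gene (1.07, SE 0.12, adjusted p = 0.00209; its feature also lies over Gm44863 and Zim3), and its neighbour Peg3, a zinc finger gene (0.67, SE 0.09, adjusted p = 0.00639). The call of Usp29 was lost without WT replicate 3 (1.08), and that of Peg3 without WT replicate 2 (0.67), WT replicate 3 (0.68) or KI replicate 3 (0.69). Meg3 and Rian are maternally expressed. Of 10 tested genes listed as maternally expressed, 0 passed in edgeR, 3 had an unadjusted p under 0.05, and DESeq2 called 1 and limma voom 0. Zim1 had levels of 12.3, 7.22 and 13.9 CPM in WT against 23.6 and 46.3 CPM in KI (log2 fold change 1.65 with SE 0.34, edgeR adjusted p = 0.0877), and Calcr, the calcitonin receptor gene, had levels of 4.73, 0 and 2.30 CPM in WT against 16.9 and 12.6 CPM in KI (2.65, SE 0.80, adjusted p = 0.368). Without WT replicate 1 Calcr had 3.73 and passed the threshold, and limma voom gave 4.05 with no call, while Zim1 passed without WT replicate 1 (1.74) or KI replicate 1 (2.05). Median log2 fold changes were 0.34 for the paternal and 0.30 for the maternal list. In the maternal list Th was read from 17 exon bases, H13 from 60, Copg2 from 72 and Ddc from 143, so these are weakly measured. Both lists and Meg3 are compared with the same libraries, so their directions are not independent of each other, and Peg10, Usp29 and Peg3 were known from earlier results.

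**Figure D3:**
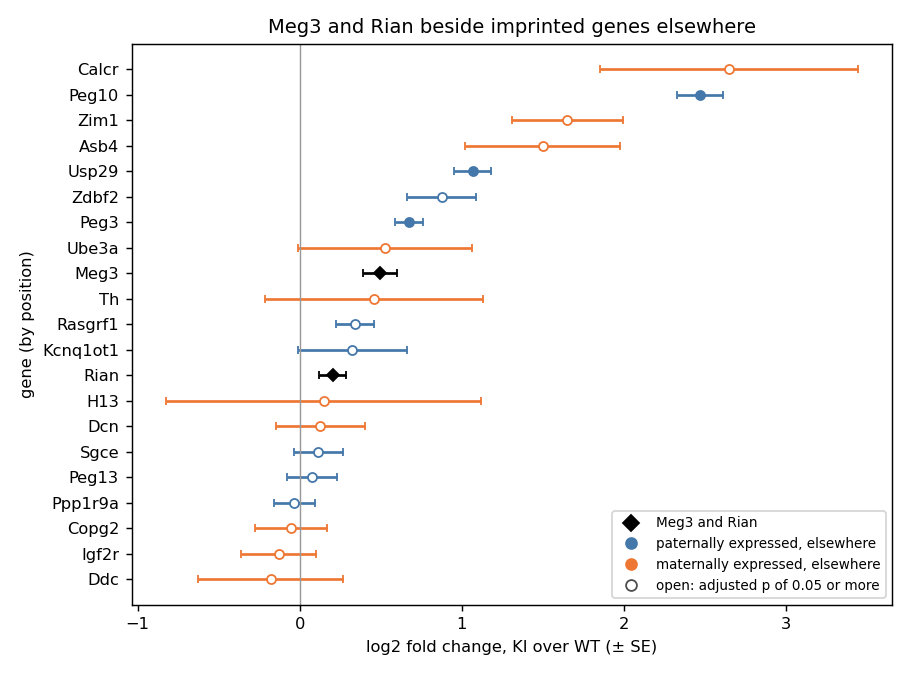
Log2 fold change of KI over WT (± SE, edgeR) for the main Meg3 and Rian features (diamonds) and for the 19 tested imprinted genes of other domains (circles). Filled circles passed an adjusted p of 0.05 and open circles did not; Meg3 is at 0.50, Rian at 0.20, Peg3 at 0.67 and Peg10 at 2.47.

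The tested genes among those that act on imprints, on cAMP response elements or on microRNAs did not pass the edgeR test. Of 9 tested genes of imprint maintenance, 0 passed in edgeR, 0 had an unadjusted p under 0.05 and DESeq2 and limma voom called 0. Dnmt1, the maintenance DNA methyltransferase, stood at 48.5, 48.1 and 53.4 CPM in WT against 72.5 and 50.9 CPM in KI (log2 fold change 0.30 with SE 0.19, edgeR adjusted p = 0.903), and Uhrf1, its partner at replicated DNA, had a log2 fold change of 1.03 (SE 0.91), which was 2.86 without WT replicate 1. The list of CREB and MEF2 factors holds proteins that bind cAMP response elements or activity-dependent promoters, and coactivators (Crtc3, Crebbp and Ep300). Of 7 tested, 0 passed in edgeR, 1 had an unadjusted p under 0.05, and DESeq2 and limma voom each called that 1. It was Crem, with 57.1, 50.9 and 69.3 CPM in WT libraries against 98.5 and 133 CPM in KI libraries, a log2 fold change of 0.97 (SE 0.18) with an adjusted p of 0.0634 in edgeR. It passed without WT replicate 1 (0.95) or KI replicate 1 (1.16). The feature lies over Gm6225 too. For Mef2d the log2 fold change was -0.16 (SE 0.18). Creb1, Atf2, Crtc1, Crtc2, Mef2b and Mef2c were assigned no feature, and Crebbp was read from 3 exon bases only. Of 7 tested microRNA processing genes 0 passed in edgeR and 1 had an unadjusted p under 0.05 (Ago4, log2 fold change -0.82, SE 0.34, edgeR adjusted p = 0.691; Ago3 had 0.23, SE 0.17), and DESeq2 and limma voom called 0.

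Of 16 listed other noncoding RNAs that stay in the nucleus or host small RNAs, 5 were covered, and those tested did not differ past the threshold. Malat1, Neat1, Miat, Xist, Snhg1 and Gas5 were among those assigned no feature. Of 4 tested list members 0 passed in edgeR, 0 had an unadjusted p under 0.05 and DESeq2 and limma voom called 0, with a median log2 fold change of 0.20. The imprinted antisense RNA Kcnq1ot1 had a log2 fold change of 0.32 (SE 0.34) and Peg13 of 0.07 (SE 0.15). Both also belong to the list of paternally expressed genes above. The summed level over the 5 covered genes of the list was 952 to 1297 CPM in WT against 1074 and 1269 CPM in KI, and the groups overlapped. Most of it was the feature of Snhg11, which also lies over Snhg17 (869 to 1204 CPM in WT, 981 and 1175 CPM in KI).

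Genes whose pattern over the 5 libraries was most like that of the main Meg3 feature were sought among 1833 features over 1 gene with a mean of at least 50 CPM. Likeness was the root mean square difference of centred log2 CPM, where 0 is an identical pattern. Among the 5 closest were Zfp146 (0.068), a zinc finger gene, Sptbn4 (0.077), a spectrin of the axon initial segment, R3hdm2 (0.092) and Hectd4 (0.092). Zfp146 stood at 101, 112 and 124 CPM in WT against 128 and 163 CPM in KI. The median over all candidates was 0.32, and the main Rian feature stood at 0.19. Patterns over 5 libraries are few points, and the genes share those libraries.

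Sums of cell type markers differed between the groups in part, and fewer cells of a type and less RNA per cell cannot be told apart in homogenates. The pan-neuronal list, over 3 of 12 genes, summed to 2519 to 2717 CPM in WT against 2761 and 2652 CPM in KI, overlapping. Spiny projection neuron genes, 6 of 16 covered, summed to 9155 to 12034.5 CPM in WT against 7843 and 8803 CPM in KI, with both KI libraries below all WT libraries. Most of that sum was Penk, the proenkephalin gene (6722 to 8271 CPM in WT, 5296 and 5903 CPM in KI). Rgs9 was also lower in both KI libraries (301 to 507 CPM in WT, 177 and 223 CPM in KI, log2 fold change -1.03). Pde10a (-0.63), Foxp1 (-0.29), Tac1 (0.14) and Gng7 (-0.09) overlapped between the groups. None of the 6 passed in edgeR (3 had an unadjusted p under 0.05; DESeq2 and limma voom each called 2), and the list has a median log2 fold change of -0.35. Hypothalamic and ventral forebrain genes, 8 of 22 covered, had log2 fold changes above 0 in 8 of 8, with a median of 0.56, and 4 had an unadjusted p under 0.05 (1 past the edgeR threshold, the imprinted Peg3). They summed to 2122 to 2844 CPM in WT against 3487 and 2932 CPM in KI. Without its 3 imprinted genes, a version chosen after the data were seen, 6 genes were covered, 6 of 6 had log2 fold changes above 0 (median 0.51), 2 had an unadjusted p under 0.05 and 0 passed in edgeR. Their sums, 1835, 1139 and 1297 CPM in WT against 1865 and 1354 CPM in KI, overlapped and were mostly Sparc (871 to 1499 CPM in WT, 1412 and 998 CPM in KI), with 0 genes at 0 in all libraries. The defining neuropeptide genes Avp, Oxt, Pmch, Hcrt, Pomc and Trh were assigned no feature. The part of these cells in the Meg3 difference was not tested.

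KI replicate 3, the library with the most Meg3, also stood apart in choroid plexus genes. The 4 of 11 covered genes of that list summed to 353 to 441 CPM in WT, 302 CPM in KI replicate 1 and 2624 CPM in KI replicate 3, mostly Ttr, the transthyretin gene (2093 CPM there, 28.0 to 61.8 CPM elsewhere). Cortical neuron genes, 4 of 10 covered, summed to 104, 338 and 257 CPM in WT against 121 and 37.6 CPM in KI. Thalamic genes, 5 of 8 covered, summed to 297, 75.4 and 58.8 CPM in WT against 160 and 48.3 CPM in KI. Without KI replicate 3 the log2 fold change of the main Meg3 feature was 0.33, and without KI replicate 1 it was 0.64. For the main Rian feature these values were 0.15 and 0.25, and for the feature labelled Rian 0.08 and 0.60. Sums of astrocyte and oligodendrocyte genes were lower in both KI libraries than in all WT libraries (125 and 131 CPM against 133 to 158 CPM, and 1469.8 and 1522 CPM against 1561 to 2071 CPM), while interneuron, microglia and endothelial sums overlapped. Median log2 fold changes were 0.14 for pan-neuronal, -0.03 for interneuron, -1.15 for cortical, -0.48 for thalamic, 0.25 for choroid plexus, -0.19 for astrocyte, -0.17 for oligodendrocyte, -0.35 for microglia and -0.44 for endothelial genes. In each of these lists edgeR, DESeq2 and limma voom called 0 genes, and an unadjusted p under 0.05 in edgeR was found for 2 cortical, 1 choroid plexus, 1 oligodendrocyte and 0 other genes. The part of any of these in the Meg3 and Rian differences was not tested.

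**Figure D4:**
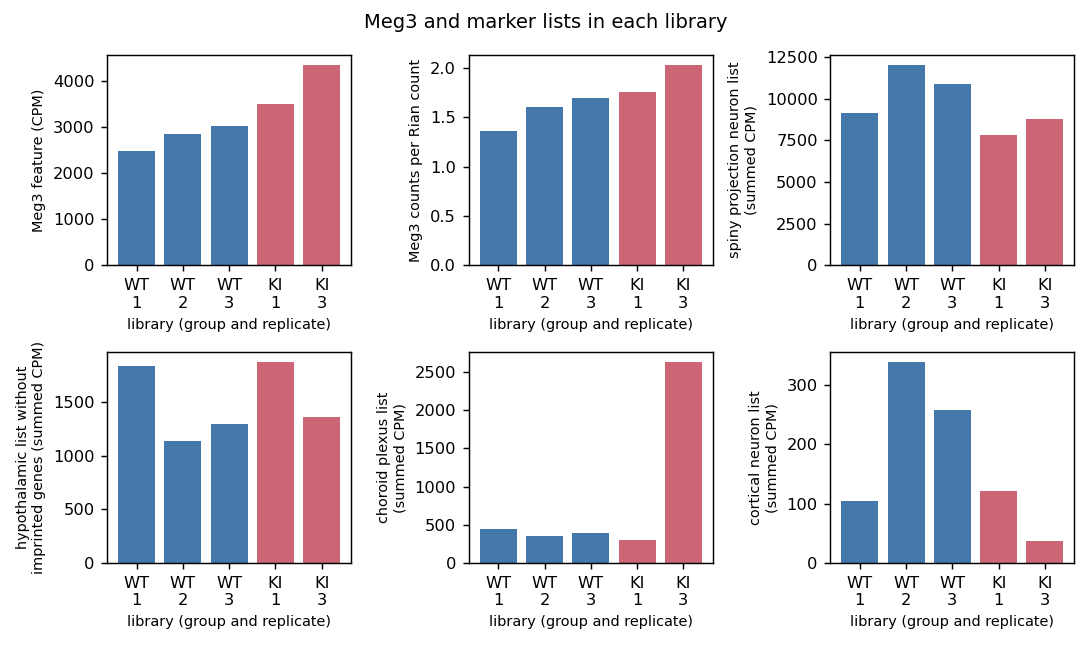
Values in each library, with WT in blue and KI in red and bars from 0: CPM of the main Meg3 feature, counts of Meg3 per count of Rian, and summed CPM of 4 marker lists. Meg3 is lowest in WT replicate 1 (2469.55 CPM) and highest in KI replicate 3 (4350.3 CPM), which is also the library with the choroid plexus signal (2624 CPM).

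The libraries held 6595105 to 7910584 counts, and a feature with 0 counts may still have had 0.372 to 0.459 CPM (3 counts per library, counting error only). Features without a GRCm38 exon held 0.848% to 1.09% of the counts in WT and 1.05% and 1.22% in KI.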

How the data were processed

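Each file the authors deposited holds raw counts of read pairs for the features of the Ensembl 103 annotation of GRCm39, from featureCounts 2.0.1, per the file headers. Their command lines assigned a pair to every feature it overlapped, ignored strand and left out multi-mapped reads. Libraries came from an Illumina ligation-based stranded mRNA kit, per the labels' protocols. The submitters' processing notes list GRCm39 without a role. Which aligner and which build the reads were aligned to is not given in the sources used here. Library totals of 6595105 to 7910584 counts limit precision at low levels.

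Because reads lie at GRCm38 positions, feature intervals were laid over GENCODE M21 exons by numeric position (bedtools 2.31.1), with no coordinate converted. Outside the locus a feature took the name of the only gene there, or of the only protein-coding gene, and each gene was read from its best-covering feature. Features over several protein-coding genes took no name. A list gene not covered or assigned no feature may therefore still lie under an unnamed feature or one named for another gene. After filterByExpr and TMM scaling, KI was compared with WT with edgeR 4.0.16 in R 4.3.3 (quasi-likelihood F-test), with Benjamini-Hochberg adjustment over 13665 features. The common biological coefficient of variation was 29.8%. TMM-scaled totals underlie all CPM values. Alternatives were the DESeq2 1.42.0 Wald test, limma 3.58.1 voom, library totals, no filter, a replicate block, naming only features over 1 gene, and leaving out each library.

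The members, the 17 gene lists and the tests were chosen with earlier results of these data known. All members were open to naming. Lists and flank were named by up to 4 genes past the threshold, or failing that by the 2 of smallest p, and likeness to Meg3 by the 5 closest features, of which 1 is not reported here. For cell type lists the text gives counts and sums, with Peg3, Ttr, Penk and Rgs9 as genes named by that rule. Uchl1, Rora, Enpp2 and Aldh1l1, also named by it, are given in the last section only. Pde10a, Foxp1, Tac1, Gng7, Sparc and Snhg11 are given outside the rule, to show what makes up a sum. The flank features labelled Gm17111, Dync1h1 and B930059L03Rik are given outside it too, as are Ppp1r9a, Th, H13, Copg2 and Ddc.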

Additional observations from a re-analysis of the deposited data

How the results depend on the processing

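The count of features past the threshold over all features was 14 in edgeR, 123 with the DESeq2 Wald test, 183 without a filter, 52 with limma voom, 154 with the replicate block and 2 to 161 when 1 library was left out (161, 3 and 2 without WT replicates 1, 2 and 3, and 30 and 6 without KI replicates 1 and 3). Members among these features past the threshold numbered 0 of 14 in edgeR, 5 of 123 with the DESeq2 Wald test and 7 of 183 without a filter. They numbered 1 of 52 with limma voom and 9 of 154 with the replicate block. With 1 WT library left out they numbered 0 to 2 (2 of 161 without WT replicate 1). List genes past it numbered 3, 7, 14, 6 and 8 in the same order, and 1 to 13 with 1 library left out (13 without WT replicate 1, 1 without WT replicate 3, 7 without KI replicate 1). The cause was not tested. The members share reads and were chosen with this contrast in view, so their calls describe the settings and are no test of the locus. Flank features stayed at 0 under all 10 alternatives. The replicate block pairs libraries by number only, since no label says what a number shares: the differences between replicates 1 and 3 correlated at 0.10 across features between WT and KI. In that fit WT replicate 2 adds nothing to the comparison, and little is left to measure the spread. Of 130 fitted values of the 13 members at 10 CPM or more, 129 were above 0 and 1 below (ENSMUSG00000118752, -0.05 without KI replicate 3). The main Meg3 feature ranged from 0.33 to 0.64 and the main Rian feature from 0.15 to 0.25. Among low members Gm25856 changed sign with limma voom (0.003) and without WT replicate 3 (0.19), and Gm25854 without WT replicate 3 (0.001). Of 322 values of named list genes 278 kept their direction and their call or lack of one, 31 gained a call, 4 lost it and 9 changed sign, none of them called in either fit. With the replicate block Mef2d had 0.011. With 1 library left out Mef2d ranged from -0.32 to 0.018, Ago3 from -0.065 to 0.48, Peg13 from -0.00029 to 0.15, Uchl1 from -0.17 to 0.0033, Rora from -0.96 to 0.27, Ttr from -0.92 (without KI replicate 3) to 5.30, Enpp2 from -0.32 to 0.65 and Aldh1l1 from -0.51 to 0.076. Depth limits the 8 members under 10 CPM.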
